A study of Mus musculus with 8 samples.

Results

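In all, 9 genes of the follistatin and activin system were followed in mouse liver: the antagonist gene Fst, its distant relative Fstl1, the activin beta subunit genes Inhba, Inhbb, Inhbc and Inhbe, and the activin receptor genes Acvr1b, Acvr2a and Acvr2b. They were taken by name, and all 9 of 9 were found among the 25690 genes of the deposited table. The table gives RNA levels in livers of mice carrying a hepatic FOXO1 knockout and of wildtype controls. The 4 wildtype libraries are titled 1, 3, 10 and 12, and the 4 knockout ones 3, 9, 10 and 11. The sources used here do not give strain, sex, age, feeding state or the means by which Foxo1 was deleted. They also do not say whether each library was a different mouse, and every p below covers only library-to-library spread, which may be technical.

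Activins are secreted dimers of beta subunits in the transforming growth factor beta family. They bind a type II receptor, which recruits and phosphorylates a type I receptor, and the signal passes to the nucleus through SMAD2 and SMAD3. Follistatin wraps around the ligand and blocks its receptor binding sites. Liver is a main source of circulating follistatin, and Fst is known as a FoxO1-dependent secreted factor in insulin-resistant mouse liver. Inhbc and Inhbe are expressed mostly in hepatocytes, whereas Inhba and Inhbb are used in many tissues.

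The 4 subunits are paralogs, so the ends of their coding sequences are shown to make visible how far the transcripts differ. These are the last 63 coding bases, stop codon included, of the longest coding transcript in GENCODE M21 (mouse build mm10), 5′ to 3′, with the 30 positions that are identical in all 4 in capitals.
Inhba: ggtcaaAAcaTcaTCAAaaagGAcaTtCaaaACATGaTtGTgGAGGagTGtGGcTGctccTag
Inhbb: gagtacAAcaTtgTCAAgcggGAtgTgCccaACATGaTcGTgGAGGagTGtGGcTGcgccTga
Inhbc: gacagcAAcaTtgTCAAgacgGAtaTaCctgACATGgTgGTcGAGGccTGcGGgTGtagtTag
Inhbe: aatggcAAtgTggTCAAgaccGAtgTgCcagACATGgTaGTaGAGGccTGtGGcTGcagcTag
Inhbc and Inhbe were the closest pair here, with 47 identical positions, or 74.6%. Over their whole transcripts the longest stretch they share letter for letter is 14 bases. The longest such stretch among the subunits, 41 bases, is between Inhba and Inhbe.

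Per library the sequencing depth came to an estimated 26.8 M to 35.1 M fragments, read from the FPKM (fragments per kilobase of transcript, scaled to library size) at which single fragments appear. Foxo1, the targeted gene, was at 3.01 to 3.81 FPKM in wildtype and at 0.212 to 0.375 in knockout libraries. Of 10250 tested genes 277 had more and 1195 less RNA in the knockout (limma, Benjamini-Hochberg adjusted p under 0.05), so 14.4% were called in all, 11.7% as lower and 2.70% as higher. With median-ratio scaling the split was 485 and 720, and with the trend of the change along transcript length removed it was 485 and 591. Knockouts 3 and 11 stood apart: the median of 18 acute phase genes was 2.73 and 2.48 above the wildtype mean on the log2(FPKM + 1) scale, against 0.25 and 0.24 in knockouts 9 and 10 and -0.14 to 0.13 in wildtype. Saa1, an acute phase serum protein gene, was at 28413 and 33012 FPKM there and at 573 and 266 in knockouts 9 and 10. All 10 hepatocyte markers were expressed, with a sum of 26037 to 27527 FPKM in wildtype and 21545 to 31847 in knockout liver, and 1 of them, Hnf4a, rose (0.43, limma adjusted p = 0.0494), a call that held in 7 of 22 alternatives and not without knockouts 3 and 11 (0.31, limma adjusted p = 0.227). The hepatocyte list shares Fgb with the acute phase list. Fgb was at 7808 and 4535 FPKM in knockouts 3 and 11, where the sums were 31847 and 31717, and at 2380 and 3105 in knockouts 9 and 10. In bulk tissue, fewer cells of a type and less RNA per cell cannot be told apart.

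The 2 hepatocyte subunit genes had the highest levels of the system. In wildtype liver Inhbc led with 21.7 ± 3.51 FPKM (SD, n = 4), followed by Inhbe with 14.3 ± 2.95 and Fstl1 with 7.24 ± 0.555, and the ranges of these 3 did not overlap, although the lowest Inhbc and the highest Inhbe value both round to 16.7. Fst (2.96 ± 1.27), Acvr1b (2.82 ± 0.602) and Acvr2a (2.51 ± 0.130) came next, and their ranges overlapped. Inhba (0.899 ± 0.320) and Acvr2b (0.652 ± 0.247) also overlapped, and Inhbb was last at 0.0294 ± 0.0216. Together Inhbc and Inhbe made up 96.6% to 98.1% of the summed subunit FPKM in wildtype and 96.1% to 98.0% in knockout libraries. Knockout liver kept this order except for Fst, which came after Inhba, with overlapping ranges. There the ranges of Inhbc, Inhbe and Fstl1 also overlapped, but Inhbc exceeded Inhbe and Inhbe exceeded Fstl1 in each of the 4 libraries. The Inhbe level rests on the transcript length that was divided out. GENCODE M21 has a single Inhbe transcript of 5319 bases, while the RefSeq gene spans 2447 bases, and the sources used here do not name the annotation behind the deposited values.

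**Figure D1:**
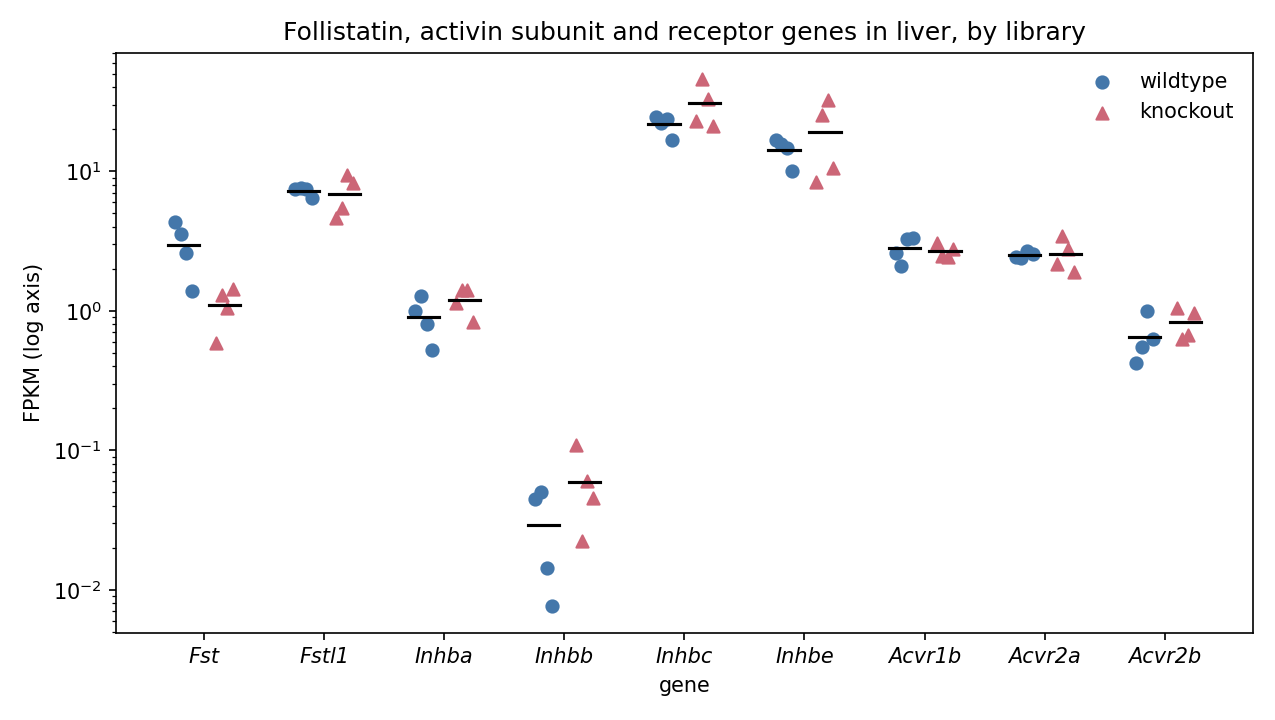
FPKM on a log axis of the 9 genes in each of the 4 wildtype (circles) and 4 knockout (triangles) libraries, with a bar at each group mean. Of the 4 Fst triangles, 3 lie below every wildtype circle, whereas the Inhbc triangles spread from inside the wildtype range to above it and the Inhbe triangles from below it to above it.

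For the fit a gene had to average 1 FPKM or more across all 8 libraries, which 7 of the 9 genes did. Inhba, at 1.05, was just inside this limit, and Acvr2b, at 0.740, just outside. Of these 7, 1 passed, Fst, beside 14.4% of all tested genes. That share is near the background, so the count says nothing particular about this system. Inhbb and Acvr2b were compared by an exact permutation test of their FPKM.

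Fst (ENSMUSG00000021765, chromosome 13, 114452290 to 114458951, mm10, minus strand, protein-coding) was lower in the knockout. The annotated antisense gene Gm47040 overlaps the 5′ end of Fst, and whether the counting used strand is not given. Wildtype 1, 3, 10 and 12 had 4.32, 3.54, 2.59 and 1.38 FPKM. Knockouts 3, 9, 10 and 11 had 0.587, 1.30, 1.04 and 1.45 FPKM. Knockouts 3, 9 and 10 lay below every wildtype library, and knockout 11 lay just above wildtype 12, so the groups overlapped by this 1 pair. The mean fell from 2.96 ± 1.27 to 1.09 ± 0.376 FPKM (SD, n = 4), a 2.71-fold lower level. On the log2(FPKM + 1) scale, which understates the change of low genes, the difference was -0.88 (SE 0.24, 95% interval -1.42 to -0.34, limma adjusted p = 0.0402). These values correspond to an estimated 56.7 to 380 fragments per library. Fst did not pass without any single library other than wildtype 12 (limma adjusted p up to 0.106), and without wildtype 12 it passed with -1.10 (limma adjusted p = 0.0170). Nor did it pass after median-ratio scaling (limma adjusted p = 0.0704), after quantile normalization (0.0655), with the length trend taken out (0.0855), or when unfiltered genes (0.0973) or all genes from 0.1 FPKM (0.0518) were tested, while the difference stayed between -1.31 and -0.71 in all 21 alternatives that gave a value.

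Set against the summed beta subunit transcripts, Fst made up a smaller part in knockout liver. Inhbc and Inhbe were 96.6% to 98.1% of that sum in wildtype and 96.1% to 98.0% in knockout libraries. RNA levels do not show which of the ligands follistatin binds, so the share is not a measure of ligand blocked. Fst was 9.27%, 8.32%, 6.22% and 4.81% of the summed FPKM of Fst and the 4 beta subunits in wildtype 1, 3, 10 and 12. In knockouts 3, 9, 10 and 11 it was 1.78%, 1.76%, 1.54% and 4.24%. The groups did not overlap, with 7.16% ± 2.02 against 2.33% ± 1.28 (SD, n = 4, exact two-sided permutation p = 0.0286, the smallest that 4 against 4 libraries allow). Such a separation was common: the FPKM of 21.3% of the 10250 tested genes did not overlap between the groups. Leaving out wildtype 1 or 3 or knockout 3, 9 or 10 gave an exact permutation p of 0.0571 with differences of -4.64 to -4.12 percentage points, against -4.83 over all libraries. The share compares genes within a library, so no scaling between libraries enters it. It does rest on the transcript lengths that were divided out, and the length used for Inhbe is not known. The ratio of Fst to Inhba, the subunit of the classical activin A, was picked after its values were seen and carries no test. It was 4.34, 2.77, 3.25 and 2.64 in wildtype 1, 3, 10 and 12, and 0.514, 0.919, 0.742 and 1.75 in knockouts 3, 9, 10 and 11. Fst thus exceeded Inhba in each wildtype library and in knockout 11 alone among the knockouts.

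**Figure D2:**
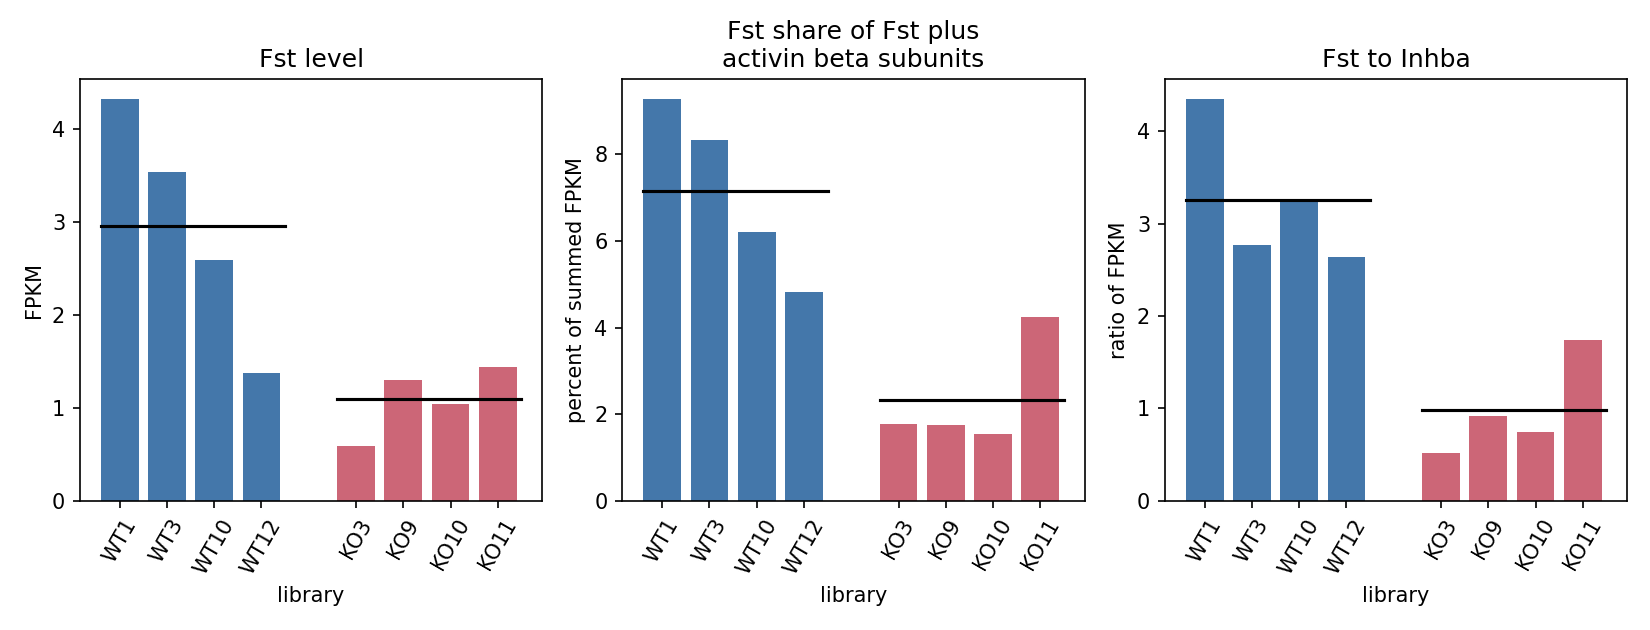
Fst FPKM (left), Fst as a percent of the summed FPKM of Fst and the 4 activin beta subunits (middle) and the ratio of Fst to Inhba FPKM (right), with a bar for each library and a line at each group mean. The level overlaps between wildtype 12 and knockout 11, while the share and the ratio separate the groups. The FPKM of 21.3% of all tested genes also separated the groups.

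Fstl1 (ENSMUSG00000022816, chromosome 16, 37776873 to 37836514, mm10, plus strand), a secreted glycoprotein gene of mesenchymal cells, did not pass. Its 4 wildtype libraries held 7.49, 7.62, 7.44 and 6.42 FPKM. Knockouts 3 and 9 were below that range, at 4.61 and 5.48, and knockouts 10 and 11 above it, at 9.39 and 8.26. The difference was -0.10 on the log2 scale (95% interval -0.52 to 0.32, limma adjusted p = 0.766). Of 15 stellate cell and fibroblast markers 8 were tested and 0 passed (2 had an unadjusted p under 0.05 in limma). Their summed FPKM was 94.5 to 116 in wildtype and 51.2, 119, 98.7 and 64.5 in knockouts 3, 9, 10 and 11, with Lrat, a defining stellate cell gene, at 0.307, 0.944, 0.854 and 0.235. Fstl1 and the marker sum were both lowest in knockout 3. In knockout 9 Fstl1 was low beside the highest marker sum, and in knockout 11 Fstl1 was high beside a low sum. The part of these cells in the Fstl1 level was not tested.

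Inhba (ENSMUSG00000041324, chromosome 13, 16011851 to 16031621, mm10, plus strand) encodes the beta A subunit of activin A. Wildtype 1, 3, 10 and 12 gave 0.995, 1.28, 0.799 and 0.522 FPKM, and knockouts 3, 9, 10 and 11 gave 1.14, 1.41, 1.41 and 0.828. The groups overlapped, although knockouts 9 and 10 were above each wildtype library. The log2 difference was 0.22 (95% interval -0.11 to 0.54, limma adjusted p = 0.348). Inhbb (ENSMUSG00000037035, chromosome 1, 119415465 to 119422248, mm10, minus strand), the beta B gene, was close to the limit of this depth. Its highest value, 0.109 FPKM in knockout 3, corresponds to an estimated 15.4 fragments, and its lowest, 0.00763 in wildtype 12, to 0.955. Means of 0.0294 ± 0.0216 and 0.0595 ± 0.0367 FPKM (SD, n = 4) did not differ detectably at this depth (exact two-sided permutation p = 0.171).

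Inhbc and Inhbe, the hepatocyte subunit genes, are neighbours on the minus strand of chromosome 10, with 1910 bases between them. Inhbc (ENSMUSG00000025405) lies at 127356322 to 127370431 and Inhbe (ENSMUSG00000047492) at 127348857 to 127354411 in mm10. The annotated antisense gene Gm47200 covers both. The sources used here do not say whether the counting used strand, so its reads cannot be told apart from theirs. The same limit applies where antisense genes overlap Inhba (Gm48444) and Acvr2b (Gm47320).

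Inhbc stood at 24.6, 22.0, 23.6 and 16.7 FPKM in wildtype 1, 3, 10 and 12. Knockouts 9 and 10 were above this range, at 45.6 and 33.2, and knockouts 3 and 11 inside it, at 22.8 and 21.2. The mean was 21.7 ± 3.51 in wildtype and 30.7 ± 11.3 FPKM in knockout liver (SD, n = 4), with a log2 difference of 0.43 (SE 0.23, 95% interval -0.09 to 0.95, limma adjusted p = 0.245). Inhbe had 16.7, 15.7, 14.7 and 10.01 FPKM in wildtype 1, 3, 10 and 12. Again knockouts 9 and 10 were higher than each wildtype library, at 25.5 and 32.2, while knockout 3 was below them all, at 8.33, and knockout 11 was at 10.5. Means of 14.3 ± 2.95 and 19.2 ± 11.6 FPKM (SD, n = 4) gave a log2 difference of 0.22 (SE 0.38, 95% interval -0.64 to 1.09, limma adjusted p = 0.737). Neither gene passed, and the spread among the knockout libraries was larger than the difference between the group means.

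Without knockouts 3 and 11, the libraries with high acute phase transcripts, both genes passed as higher, beside 1.94% of 10250 genes. In that fit 8.34% of genes passed in all, 6.40% as lower, and 2 of the 7 members tested. Inhbc then differed by 0.83 (95% interval 0.39 to 1.26, limma adjusted p = 0.0413) and Inhbe by 0.98 (95% interval 0.51 to 1.46, limma adjusted p = 0.0329). This comparison rests on 2 knockout libraries, and the 2 left out had the lowest knockout values of both genes. It cannot serve as a test of the subunits, because the choice of libraries itself raised both differences. In the same fit Fst differed by -0.81 and did not pass (limma adjusted p = 0.140). Whether the acute phase response had a part in the Inhbc and Inhbe levels was not tested. Neutrophil and lymphocyte markers also differed between these libraries, with summed FPKM of 61.8 and 148 in knockouts 3 and 11, 4.07 and 7.66 in knockouts 9 and 10 and 2.04 to 6.08 in wildtype, and their part was not tested either. Of 4 such markers tested 0 passed (2 had an unadjusted p under 0.05 in limma). Cd3e, a defining T cell gene, was at most at 0.0492 FPKM in any library. Inhbe as a share of the 4 subunits was 39.5%, 40.1%, 37.5% and 36.7% in wildtype 1, 3, 10 and 12, and 25.7%, 35.2%, 48.2% and 32.3% in knockouts 3, 9, 10 and 11. These percentages also rest on the Inhbe transcript length that was divided out. The group means of 38.5% ± 1.61 and 35.3% ± 9.43 (SD, n = 4) did not differ beyond the spread (exact two-sided permutation p = 0.543), although without knockout 10 the difference was -7.40 percentage points (exact two-sided permutation p = 0.0286).

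**Figure D3:**
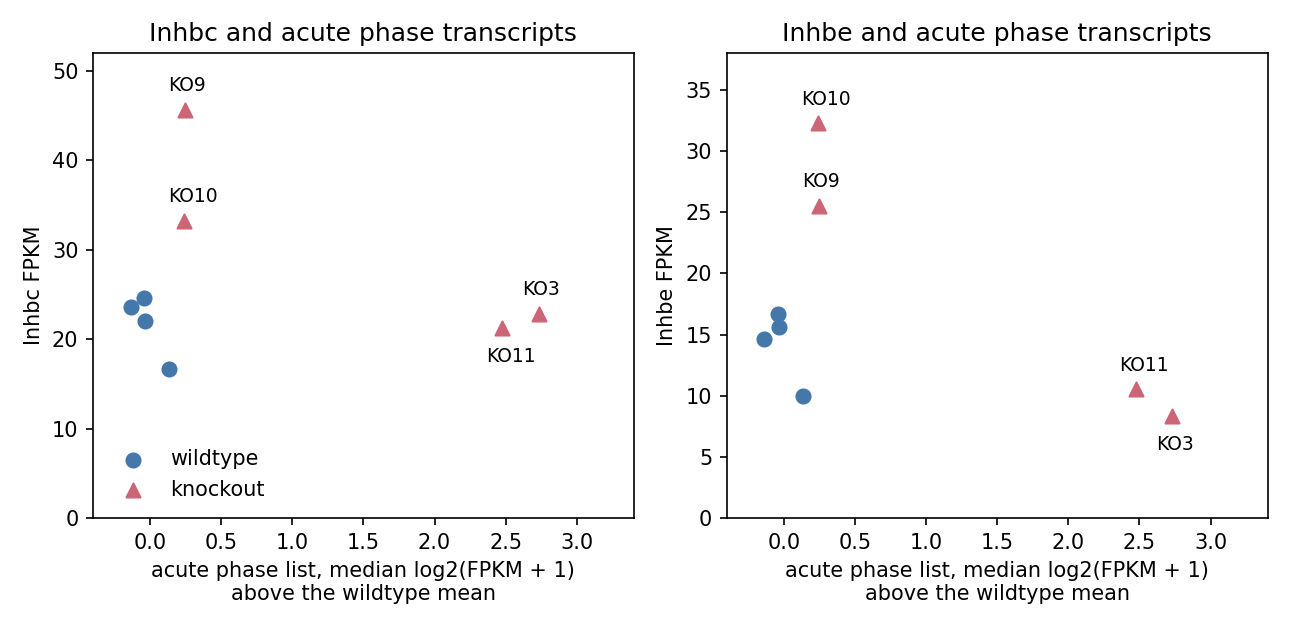
FPKM of Inhbc (left) and Inhbe (right) in each library against the median of 18 acute phase genes, as log2(FPKM + 1) above the wildtype mean. Knockouts 9 and 10, near 0.25 on the horizontal axis, are above the wildtype libraries for both genes, and knockouts 3 and 11, at 2.73 and 2.48, are not.

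Because Inhbc and Inhbe were high in the same 2 knockout libraries, their promoters are shown side by side. These are the 250 bases before the RefSeq start (GRCm38.p6, minus strand, 5′ to 3′), at chr10:127370549-127370798 for Inhbc and chr10:127351849-127352098 for Inhbe. The search covered, on both strands, the FoxO core TGTTTAC, the insulin response sequence CAAAACAA and TGATGCAA, a sequence bound by ATF4 and its partners, and matches are in capitals.
Inhbc: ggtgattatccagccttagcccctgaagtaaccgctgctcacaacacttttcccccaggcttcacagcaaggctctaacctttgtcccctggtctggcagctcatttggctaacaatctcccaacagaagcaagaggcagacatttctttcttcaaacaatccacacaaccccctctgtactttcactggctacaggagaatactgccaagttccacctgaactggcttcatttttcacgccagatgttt
Inhbe: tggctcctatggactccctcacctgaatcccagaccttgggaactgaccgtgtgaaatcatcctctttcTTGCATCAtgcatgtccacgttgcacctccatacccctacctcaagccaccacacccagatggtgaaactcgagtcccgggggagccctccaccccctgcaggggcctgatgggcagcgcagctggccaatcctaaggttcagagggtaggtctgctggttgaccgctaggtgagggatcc
TGATGCAA was found in the Inhbe window, on the reverse strand, 181 bases before the start, and in no other of the 8 genes with a RefSeq window. It occurs in 0.791% of 32851 mouse promoter windows of this length. TGTTTAC, found in 3.17% of them, and CAAAACAA, found in 2.21%, were in none of the 8. A match is a description of letters and not a measured binding site. The GENCODE start of Inhbe lies further upstream, and the Fst promoter was not in the table used.

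Inhbe is known as a gene induced with the integrated stress response, whose transcription factor is ATF4, so 15 genes of that response were examined. Of 11 tested 3 fell and 2 rose, beside 11.7% lower and 2.70% higher among all tested genes. The median log2 change was -0.42, against -0.08 over all tested genes. Among those below 1 FPKM, which carry no test, Psat1 was higher in each knockout library than in any wildtype one. Vldlr was lower in each, while Sesn2 and Phgdh overlapped. Such a separation was seen in 21.3% of all tested genes. Trib3, a pseudokinase gene, fell by 1.81 on the log2 scale (limma adjusted p = 0.00621) and Ppp1r15a, a phosphatase subunit gene, fell by 0.78 (limma adjusted p = 0.0247). Atf4 itself, named after its values were seen, fell by 0.51 (limma adjusted p = 0.0491) and passed in 6 of 22 alternatives. Asns, the asparagine synthetase gene, and Chac1, a glutathione-degrading enzyme gene, rose by 1.43 (limma adjusted p = 0.0150) and 0.77 (limma adjusted p = 0.0242). Without knockouts 3 and 11 Trib3 alone passed, with -1.84 (limma adjusted p = 0.0389), and the list median was -0.19. The other called genes kept their direction there, with 1.03 for Asns, 0.53 for Chac1, -0.67 for Ppp1r15a and -0.34 for Atf4 (limma adjusted p = 0.0725 to 0.225). The called genes thus went in both directions. Atf4 was at 62.0 and 45.4 FPKM in knockouts 9 and 10, where Inhbe was high, and at 44.7 and 38.2 in knockouts 3 and 11, against 67.5 ± 7.45 (SD, n = 4) in wildtype.

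None of the 3 receptor genes differed between the groups beyond the spread of the libraries. Acvr1b (ENSMUSG00000000532, chromosome 15, 101174067 to 101213684, mm10, plus strand) encodes the type I receptor that phosphorylates SMAD2 and SMAD3. It was at 2.58, 2.08, 3.28 and 3.34 FPKM in wildtype 1, 3, 10 and 12, and all 4 knockout libraries, at 2.42 to 3.05, fell inside that range. Its log2 difference was -0.04 (95% interval -0.33 to 0.24, limma adjusted p = 0.854), and the sign turned with median-ratio scaling (0.0396). Acvr2a (ENSMUSG00000052155, chromosome 2, 48814109 to 48903269, mm10, plus strand), a type II receptor gene, was tightly grouped in wildtype, at 2.42, 2.40, 2.69 and 2.54 FPKM. In knockouts 3, 9, 10 and 11 it was at 2.18, 3.41, 2.76 and 1.90, so knockouts 9 and 10 lay above the wildtype range and knockouts 3 and 11 below it. The group means were nearly equal (log2 difference 0.00, 95% interval -0.29 to 0.30, limma adjusted p = 0.996). Orc4 overlaps the 3′ end of Acvr2a on the other strand and was itself high in knockout 9, at 22.2 FPKM against 11.6 to 15.4 in the other libraries. Acvr2b (ENSMUSG00000061393, chromosome 9, 119402118 to 119434995, mm10, plus strand), the second type II receptor gene, was at 0.652 ± 0.247 and 0.828 ± 0.207 FPKM (SD, n = 4), which did not differ beyond the spread (exact two-sided permutation p = 0.257). Without knockouts 3 and 11 Acvr1b (limma adjusted p = 0.626) and Acvr2a (0.254) did not pass either. For Acvr2b the exact permutation p was 1.0 there, but 4 against 2 libraries cannot give one below 0.0667, so it could not pass.

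**Figure D4:**
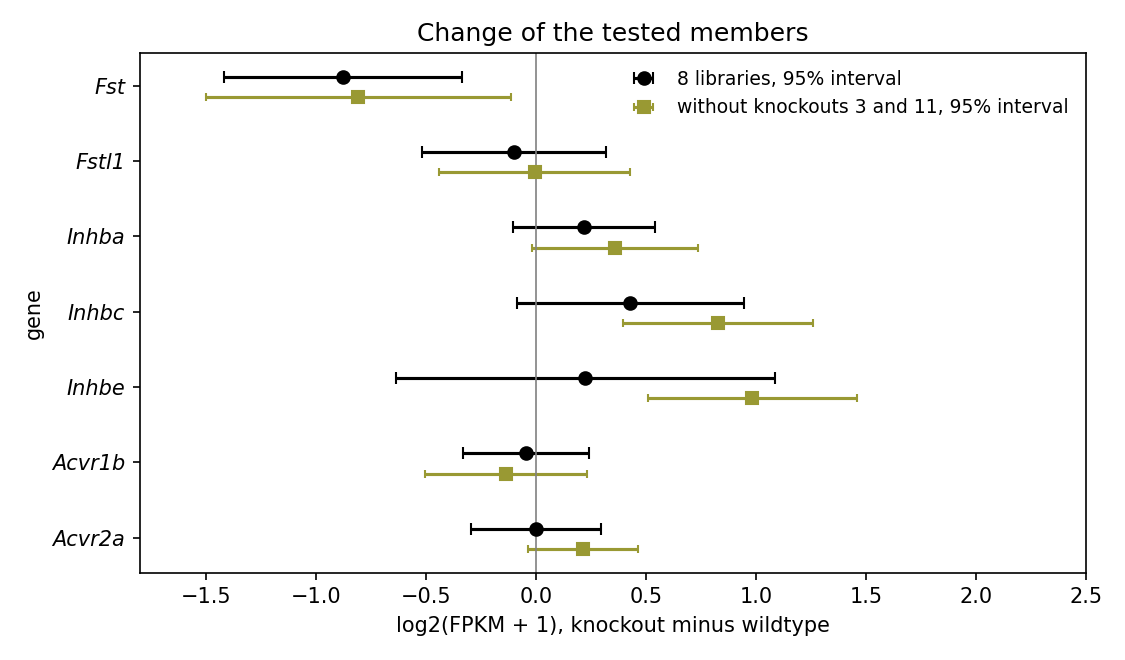
Difference in log2(FPKM + 1), knockout minus wildtype, with 95% intervals, for the 7 genes tested, over 8 libraries (circles) and without knockouts 3 and 11 (squares). The Fst interval lies below 0 in both, and those of Inhbc and Inhbe lie above 0 only without the 2 libraries. The 2 libraries left out had the lowest knockout values of Inhbc and Inhbe.

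Around these genes, most of the pathway was either below 1 FPKM or did not pass, while 14.4% of all tested genes passed. Listed genes below 1 FPKM carry no test. Of these, Bambi and Tgfbr3 were lower, and Col1a1 higher, in each knockout library than in any wildtype one. The FPKM of 21.3% of all tested genes also separated the groups. Of 14 other follistatin relatives and extracellular regulators 2 were tested and 0 passed (0 had an unadjusted p under 0.05 in limma), with Chrd, the gene of a bone morphogenetic protein antagonist, closest at -0.12 (limma adjusted p = 0.395). Inha, the inhibin alpha subunit, and Fstl3, the nearest relative of Fst, were low throughout, at up to 0.109 and 0.0257 FPKM. Among 15 other measured ligands of the transforming growth factor beta family 3 were tested and 1 fell. This was Bmp2, a bone morphogenetic protein gene of liver endothelium, with a fall of 0.39 (limma adjusted p = 0.0251). Bmp2 passed in 13 of 21 alternatives and not without wildtype 1, 3, 10 or 12 or knockout 3, each alone, or knockouts 3 and 11 together (-0.29, limma adjusted p = 0.105). Of 9 sinusoidal endothelial markers tested 3 fell with it, Fcgr2b, Egfl7 and Stab1, beside 11.7% of all tested genes. In the list 6 had an unadjusted p under 0.05 in limma. Pecam1 (0.01), Cdh5 (-0.06) and Stab2 (-0.12) hardly differed (limma adjusted p = 0.403 to 0.962). The summed FPKM of the 10 listed was 80.3 to 103 in wildtype and 47.4 to 79.8 in knockout liver, and the part of these cells in the Bmp2 value was not tested. Without knockouts 3 and 11, where 2 knockout libraries remain, none of the 3 called markers passed (limma adjusted p = 0.0762 to 0.0958), with differences of -0.47 for Fcgr2b, -0.63 for Egfl7 and -0.96 for Stab1 against -0.59, -0.78 and -1.02 over all libraries. Among 9 other type I and type II receptors 3 were tested and 0 passed (0 with an unadjusted p under 0.05 in limma), and Acvr1, a type I receptor gene, came closest with a difference of 0.16 (limma adjusted p = 0.468). Of 17 tested SMAD genes and their regulators 0 passed (3 had an unadjusted p under 0.05 in limma), with a median of -0.03. Ppm1a, a phosphatase that acts on SMAD2 and SMAD3, was closest, at -0.33 (limma adjusted p = 0.0616). Of 15 measured genes known to be induced by activin or transforming growth factor beta 6 were tested and 0 passed (1 with an unadjusted p under 0.05 in limma), with a median of -0.04. Fn1, the fibronectin gene, came closest with a difference of 0.46 (limma adjusted p = 0.0935), which was highest in knockouts 3 and 11, at 171 and 131 FPKM against 94.7 and 110 in knockouts 9 and 10. In the acute phase list 2 of 18 rose, beside 2.70% of all tested genes: Lrg1 (2.19, limma adjusted p = 0.0147) and Fga (0.97, limma adjusted p = 0.0492). Of the 18, 13 had an unadjusted p under 0.05 in limma, and the median was 1.40. The Fga call held in 11 of 22 alternatives and not with median-ratio scaling (limma adjusted p = 0.0589), and the Lrg1 call in 21. Both calls held without knockouts 3 and 11, where 2 knockout libraries remain. In that fit 3 of the 18 rose, beside 1.94% of all tested genes, and the list median was 0.27. Lrg1 then differed by 1.22 (limma adjusted p = 0.00968) and Fga by 0.48 (limma adjusted p = 0.0485).

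The genes whose levels ran most closely with those of the secreted members were named by Pearson's r of log2(FPKM + 1) over the 8 libraries, among 10249 other tested genes, as a description. Fst was most like Ppp1r15a (r = 0.986), Dpys, a pyrimidine breakdown enzyme gene (0.981), and Rps24, a ribosomal protein gene (0.974). With the group means taken out the values were 0.970, 0.963 and 0.932. Ppp1r15a was at 12.8, 12.6, 9.32 and 6.87 FPKM in wildtype 1, 3, 10 and 12 and at 4.27, 6.06, 5.90 and 5.92 in knockouts 3, 9, 10 and 11, so wildtype 12 was again the lowest wildtype library and knockout 3 the lowest of all. Inhba was most like Acvr1 (0.928), Slc7a10 (0.920) and Helz2 (0.904). Inhbc ran with Eloa (0.978), Actb (0.975) and Sec31a (0.969), and Inhbe with Dcaf5 (0.972), Egln3 (0.968) and Slc39a4 (0.951). Between the members themselves r was 0.81 for Inhbc and Inhbe and 0.78 for Inhba and Inhbc, and with the group means taken out 0.85 and 0.703. For Fst it was -0.18 with Inhbc and -0.09 with Inhba, and with the group means taken out the sign turned, to 0.46 and 0.55. All of these values share the same 8 libraries and their depth, and with this many genes high values of r arise by selection.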

How the data were processed

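Liver RNA was sequenced in 8 libraries, 4 per group, grouped by the titles and genotype labels. Per the labels' protocols, liver total RNA was extracted with Trizol, cleared of DNA and cleaned on a column. The authors deposited FPKM per Ensembl gene. The header names libraries only, so the unit was inferred from the tools and the range of values. The submitters' processing notes name build mm10, TopHat2 2.1.0, HTSeq and Cufflinks 2.2.1, with no role or order. Symbols were found for 24807 genes. Names, positions and transcript lengths are from GENCODE M21 on the same build, and promoters from RefSeq (GRCm38.p6), where 8 of the 9 genes matched.

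The 10250 genes averaging 1 FPKM or more were fitted on the log2(FPKM + 1) scale by genotype alone, using limma 3.58.1 (R 4.3.3) with trended variance. Tests were two-sided, and p was adjusted over all of these genes by Benjamini-Hochberg, with a threshold of 0.05. The script was tested on simulated data. Exact permutation tests covered single values. The members, lists and alternatives were chosen with earlier results of these data known. Genes named are the 9 members, Foxo1, up to 4 called genes per pathway list (the gene with the smallest p where none passed), 3 genes most like each secreted member, and markers. Atf4, Saa1, Inha, Fstl3, Lrat, Cd3e, Pecam1, Cdh5, Stab2, Fgb and Orc4 were named after their values were seen. So were Bambi, Tgfbr3, Col1a1, Psat1, Vldlr, Sesn2, Phgdh, Ahsg and Ttr. No pair of libraries had equal values for more than 0.166% of tested genes. Of 10 tested Kupffer cell and macrophage markers 0 passed (0 with an unadjusted p under 0.05 in limma), and of 7 bile duct markers 1 was tested and 0 passed (Spp1, limma adjusted p = 0.0552). FPKM are not counts, so fragment numbers and depth are estimates.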

Additional observations from a re-analysis of the deposited data

Results flagged for a closer look

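Fstl1 in wildtype 12, at 6.42 FPKM, lay apart from the other 3 wildtype libraries at 7.44 to 7.62, with a gap of 0.853 of the group's range, above Dixon's 95% critical value for 4 samples. It was the 1 such value in 18 groups examined (9 genes in 2 genotypes), and chance gives about 1 in 20 groups. Wildtype 12 was also the lowest wildtype library for Fst, Inhba, Inhbb, Inhbc and Inhbe.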

How the results depend on the processing

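Depth and the number of libraries limit these results. Inhbb rests on an estimated 0.955 to 15.4 fragments per library, and 4 against 2 libraries cannot give an exact p below 0.0667. The cause of each change below was not tested unless fewer samples or genes entered.

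Genes higher and lower numbered 485 and 720 with median-ratio scaling, 470 and 652 with quantile normalization, 485 and 591 with the length trend removed, and 102 to 360 and 599 to 1294 without single libraries. Without knockouts 3 and 11, 199 were higher and 656 lower. The number of members called was 0 with no filter on low values, a filter at 0.1 or 5 FPKM (where Fst is not tested), median-ratio scaling, quantile normalization or the length trend removed, 0 to 1 without single libraries, and 2 without knockouts 3 and 11. Fst kept its direction in 21 alternatives but passed in 7. It was -0.88 with no filter or a filter at 0.1 FPKM, -0.81 with median-ratio scaling, -0.84 with quantile normalization, -0.80 with the length trend removed, -0.81 without knockouts 3 and 11, and -1.10 to -0.71 without single libraries. The Fst share differed by -5.61 to -4.12 percentage points without single libraries, where the exact p was 0.0286 or 0.0571, and by -5.51 without knockouts 3 and 11 (exact permutation p = 0.0667).

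Signs turned for values near 0. Acvr2a was -0.0059 and -0.0014 with pseudocounts of 0.1 and 0.5, -0.0212 with library weights, and -0.11 to 0.0948 without single libraries. Acvr1b was 0.0396 with median-ratio scaling and -0.14 to 0.02 without single libraries. Fstl1 was -0.24 to 0.0536, Inhbe -0.0823 to 0.53, Dcaf5 -0.0601 to 0.0843, Egln3 -0.11 to 0.18 and Slc39a4 -0.0261 to 0.41 without single libraries, and Egln3 was -0.0368 with library weights. The Inhbe share differed by -7.40 to 0.0893 percentage points without single libraries and by 3.22 without knockouts 3 and 11, where the Acvr2b difference was -0.000148 FPKM. Inhba, Inhbb and Inhbc kept their direction in every alternative run.

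The numbers 3 and 10 occur in both groups. With the number in the titles as a replicate block, 1 gene was higher, 1 lower and 0 members called. Fst was -1.17 (limma adjusted p = 0.272), Acvr1b 0.0363 and Acvr2a -0.0343. Deviations from the group means correlated at -0.0079 (number 3) and 0.022 (number 10) over 10250 genes, so the labels and the data do not show that the numbers pair the samples, and the block leaves 1 residual degree of freedom.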
